A study of Mus musculus with 8 samples.

Results

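A pair of chemokine routes that bring T cells and natural killer cells into tumors were followed in mouse pancreatic tumors of the pancreas and of the liver: Cxcl9, Cxcl10 and Cxcl11 with their receptor Cxcr3, and Cxcl16 with its receptor Cxcr6. The genes were chosen by name, as the ligands and receptors of both routes, with earlier results of the same libraries in view, so their bulk levels and changes are given as a description, without p-values, and nothing is supported with them. All 6 genes were among the 52459 genes listed in the bulk RNA-seq counts. Of the 31053 genes of each single-cell matrix, 5 were members, and Cxcl11 had no row there.

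The samples came from C57BL/6 mice that received 100000 FC1242 cells, a mouse KPC pancreatic cancer line. KPC names a genetically engineered mouse model of pancreatic cancer from which such lines are derived, and here the tumors came from a single line. One group received the cells in the pancreas and is called primary, and the other carried tumors in the liver, labelled as metastatic, and is called liver. Tumors were taken at week 3. Bulk RNA-seq of total RNA from fresh tumor tissue gave 3 primary and 3 liver libraries, and CD45+ cells sorted from tumors gave 1 10x Genomics single-cell library per site. The labels name no treatment beyond the injection, and the use of separate mice, their sex and age and any pairing were not given in the sources used here. The bulk p-values therefore set the site difference against the spread between these libraries, and whether they extend to mice is not known.

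CXCL9, CXCL10 and CXCL11 are secreted proteins that bind CXCR3, a G protein-coupled receptor of activated T cells, natural killer (NK) cells and some dendritic cells. Interferon-gamma, made by those same lymphocytes, induces all 3 genes, in part through the transcription factor IRF1, and CXCL10 also responds to type I interferon. CXCL16 differs in being made as a membrane protein that is shed by the proteases ADAM10 and ADAM17, and its receptor CXCR6 marks tissue-resident and effector T cells and NKT cells, the latter abundant in mouse liver.

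The 3 CXCR3 ligand genes lie side by side on the minus strand of mouse chromosome 5 (GRCm38, GENCODE M21). Cxcl9 spans chr5:92321347-92328079, Cxcl10 spans chr5:92346638-92348889 and Cxcl11 spans chr5:92359544-92365485, with 18.6 kb between the first pair and 10.7 kb between the second. Cxcl11 is annotated as a polymorphic pseudogene, and the C57BL/6 copy is known to carry a frameshift, so its transcript does not stand for the full protein in these mice. Cxcr3 lies at chrX:101731535-101734269 (minus strand), Cxcl16 at chr11:70453983-70459984 (minus strand) and Cxcr6 at chr9:123806475-123811760 (plus strand).

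RefSeq start sites were found for 4 of the 6 genes (Cxcl9, Cxcl10, Cxcr3 and Cxcr6). The 250 bases before the start of Cxcl9 and Cxcl10 are shown because both ligand genes had higher bulk levels in every liver library than in any primary library. They are read from RefSeq windows on GRCm38.p6, 5′ to 3′ on the minus strand, at chr5:92328080-92328329 for Cxcl9 and chr5:92348890-92349139 for Cxcl10, and the capitals mark matches to the motifs named after them.
Cxcl9: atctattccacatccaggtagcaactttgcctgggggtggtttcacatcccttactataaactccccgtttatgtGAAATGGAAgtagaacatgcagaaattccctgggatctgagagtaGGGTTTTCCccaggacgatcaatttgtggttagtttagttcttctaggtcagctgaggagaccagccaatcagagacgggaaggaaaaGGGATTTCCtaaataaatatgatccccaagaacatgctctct
Cxcl10: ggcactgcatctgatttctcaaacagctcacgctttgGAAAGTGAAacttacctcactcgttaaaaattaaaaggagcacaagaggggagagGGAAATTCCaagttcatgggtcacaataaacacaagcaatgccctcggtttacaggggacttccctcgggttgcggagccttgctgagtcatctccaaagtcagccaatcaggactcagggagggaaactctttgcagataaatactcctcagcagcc

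The motifs were searched on both strands of windows from 250 bases before to 50 bases after each start. The pair of half-sites of the interferon-stimulated response element, GAAANNGAA, matched once in each ligand window, as GAAATGGAA from -175 to -167 in Cxcl9 and as GAAAGTGAA from -213 to -205 in Cxcl10. The kappa B core, GGNNTTTCC, matched in Cxcl9 at -130 to -122 and again at -42 to -34, and in Cxcl10 on the other strand at -158 to -150. The gamma-activated site, TTCNNNGAA, which reads the same on both strands, matched in neither window, and the Cxcr3 and Cxcr6 windows held none of the 3 motifs. Among all 32851 windows of the same length, 8.56% held the interferon pair, 5.82% the kappa B core and 8.3% the gamma-activated site, and a match is a description of letters only. No 2 of these motifs overlapped in the printed sequences.

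The bulk libraries held 27481390 to 36743247 reads assigned to genes. After filtering, 16487 genes were tested between sites with edgeR's quasi-likelihood test, of which 2755 (16.7%) were called higher in liver and 1032 (6.26%) lower at a Benjamini-Hochberg adjusted p under 0.05. The liver libraries also carried liver tissue: the 15 hepatocyte genes summed to 180–621 CPM (counts scaled to a common library total) in primary and 65000–100000 in liver. Cells kept for single-cell measurements numbered 2272 in primary and 7575 in liver, each with at least 1500 unique molecular identifiers (UMIs, counted transcript molecules) and at most 10% mitochondrial UMIs. The mitochondrial limit removed 69.53% of the primary and 39.08% of the liver barcodes with enough UMIs, 7 barcodes were shared by both libraries, and the depth differed, with a median of 12031.5 UMIs per primary and 6750 per liver cell. Although the cells were sorted on CD45, 13.7% of primary and 31.1% of liver cells carried epithelial tumor markers, and in those cells Ptprc, the gene of CD45, was at 8.6 and 12.4 CPM against 467 and 191 over all kept cells.

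In the bulk tumors, the CXCR3 ligands and Cxcr3 stood higher in liver, while Cxcl16 and Cxcr6 had overlapping levels at both sites. Of the 6 genes, 3 were called higher (Cxcl9, Cxcl11 and Cxcr3) and 0 lower, beside 16.7% and 6.26% of all tested genes. In 4 of the 6, every liver library stood above every primary library, as did 23.8% of all tested genes. Since the genes were chosen with this contrast known, nothing is read from those counts. The median log2 change of the members, liver minus primary, was 1.30, and that of all tested genes was -0.066.

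Cxcl9, the ligand most tightly tied to interferon-gamma, was at 14.6, 15.1 and 21.4 CPM in the 3 primary libraries and at 77.9, 39.8 and 47.7 CPM in the 3 liver libraries. Liver library 1 was the highest, and the groups did not overlap. The means were 17.0 ± 3.79 and 55.1 ± 20.1 CPM (SD, n = 3 each), a log2 change of 1.69 (SE 0.29) or 3.23-fold.

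Cxcl10, which is induced by several interferons and by innate immune signals, was at 6.71, 3.57 and 11.6 CPM in primary and at 21.3, 12.1 and 11.9 CPM in liver. The groups barely separated: the highest primary library, replicate 3, lay just under the lowest liver libraries, and liver replicate 1 again stood above the other liver libraries. The log2 change was 1.04 (SE 0.44), and without primary replicate 3 it was 1.54.

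Cxcl11 had few reads, 24, 26 and 42 in primary and 176, 106 and 100 in liver. Its levels were 0.59, 0.90 and 1.04 CPM in primary and 7.74, 3.62 and 2.98 CPM in liver. The groups did not overlap, and liver replicate 1 was the highest for this ligand as well. The log2 change was 2.49 (SE 0.48), or 5.62-fold, the highest fold of the 6 genes. The receptor Cxcr3 had 34, 17 and 30 reads in primary and 55, 58 and 70 in liver, or 0.836, 0.589 and 0.746 CPM against 2.42, 1.98 and 2.08 CPM. The levels were low but tight within each site and did not overlap. The log2 change was 1.57 (SE 0.34).

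Cxcl16, the membrane-bound ligand of CXCR6, was at 61.9, 59.1 and 74.8 CPM in primary and at 66.7, 60.1 and 60.6 CPM in liver. The ranges overlapped, and the means of 65.3 ± 8.41 and 62.5 ± 3.63 CPM (SD, n = 3 each) differed by less than the SD of either site. The log2 change was -0.06 (SE 0.17). Its receptor Cxcr6 was at 1.45, 4.61 and 2.24 CPM in primary and at 4.4, 2.66 and 2.92 CPM in liver. Primary replicate 2 was the highest of all 6 libraries, so the groups overlapped. The log2 change was 0.27 (SE 0.47), and its sign turned without primary replicate 1 (-0.041). In bulk tissue, fewer cells of a type and less RNA per cell cannot be told apart.

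**Figure D1:**
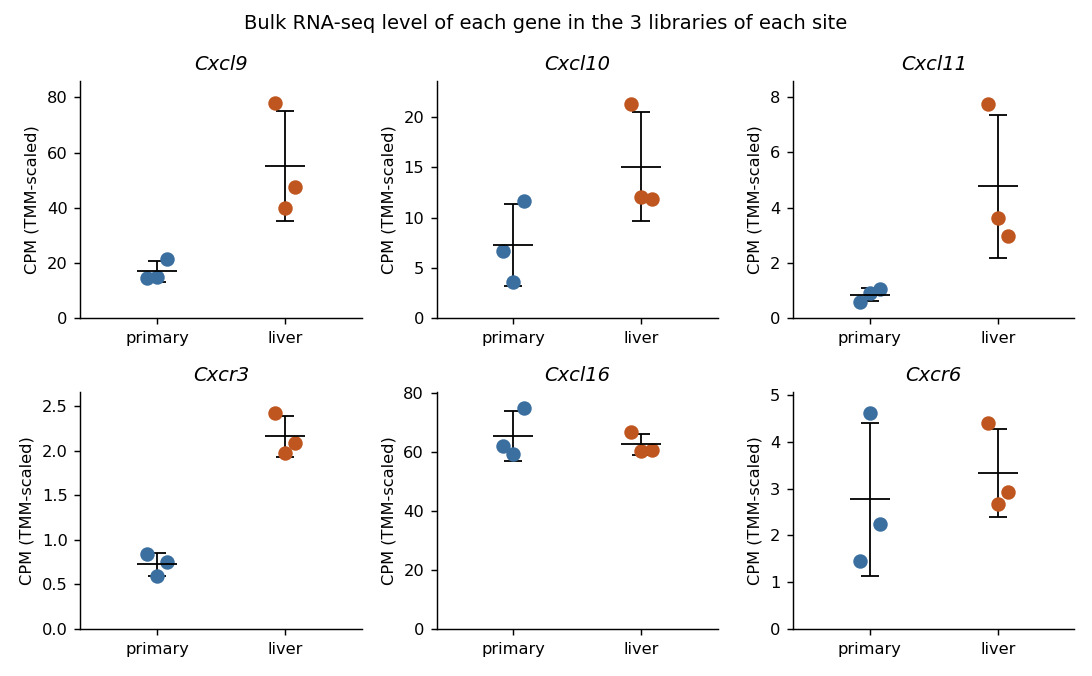
Bulk RNA-seq level of each gene (vertical axis, TMM-scaled CPM) by site (horizontal axis), with 1 point per library, 3 per site, a horizontal line for the mean and bars for the SD. The liver points of Cxcl9, Cxcl10, Cxcl11 and Cxcr3 sit above all primary points, and those of Cxcl16 and Cxcr6 overlap them.

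Levels of different genes were compared only on the length-scaled FPKM that the authors deposited. In primary tumors Cxcl16 had the highest FPKM, 21.4 ± 2.47 (SD, n = 3), and Cxcl9 followed at 5.59 ± 1.17 with no overlap. Cxcl10 (3.2 ± 1.75), which overlapped both of its neighbours, came before Cxcr6 (1.42 ± 0.858), Cxcr3 (0.413 ± 0.0702) and Cxcl11 (0.223 ± 0.0569), and these last 3 did not overlap each other. In liver tumors Cxcl16 (20.8 ± 1.18) and Cxcl9 (18.3 ± 6.57) overlapped, so that the CXCR3 ligand with the highest FPKM there was within the spread of the CXCR6 ligand. Cxcl10 followed at 6.72 ± 2.39, below Cxcl9 in every liver library, then Cxcr6 at 1.73 ± 0.481, and Cxcl11 (1.26 ± 0.681) overlapped both Cxcr6 and Cxcr3 (1.25 ± 0.127). Cxcr3 lay just under Cxcr6, with a highest liver value of 1.4 against a lowest Cxcr6 value of 1.41 FPKM.

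Cxcl10, Cxcl11, Cxcl16 and Cxcr6 each overlap a gene on the opposite strand, and whether the bulk counting used strand was not given in the sources used here. Cxcl10 and Cxcl11 lie inside Art3, and Cxcr6 inside Fyco1, with 133, 0 and 0 shared exon bases. Cxcl16 shares 552 of its 3021 exon bases with Zmynd15, and Cxcl11 shares 1582 of 3794 with the pseudogene Gm2673, which had 1 read over the 6 libraries. The bulk values of these members could hold reads of their neighbours, from shared exons or, as for Cxcr6 inside Fyco1, from introns. The log2 change was 1.31 (SE 0.21) for Fyco1, 0.95 (SE 0.28) for Zmynd15 and 0.72 (SE 0.415) for Art3. The part of such reads in the members' values was not tested.

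The genes that work upstream of the CXCR3 ligands were taken next. The calls in this and the later gene lists stand beside 16.7% of all tested genes called higher and 6.26% called lower. A list with calls near those shares does not stand out. Of 15 genes of the interferon-gamma receptor pathway, 5 were called higher in liver (Jak1, Irf8, Stat2, Ciita and Nlrc5) and 1 lower (Ifngr1), with a median log2 change of 0.29 against -0.066 over all tested genes. The transcription factor Irf8 rose from 17.7 ± 2.97 to 45.4 ± 1.58 CPM (log2 change 1.36, SE 0.19, edgeR adjusted p = 0.001512), and Nlrc5, which drives MHC class I genes, rose by 1.45 (SE 0.23, adjusted p = 0.003074). Ifng and Irf1, which act above the ligands, did not pass. Ifng itself was at 0.193 ± 0.138 and 0.391 ± 0.223 CPM (log2 change 0.98, SE 0.71, edgeR adjusted p = 0.3536). Irf1 was at 103 ± 14.8 and 126 ± 21.3 CPM (0.29, SE 0.20, edgeR adjusted p = 0.3397).

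Other genes that interferon-gamma induces had more calls: 18 of 24 were called higher and 0 lower, with a median of 1.26, and 11 of 24 were called without liver replicate 1. The GTPase Iigp1 rose from 23.7 ± 4.33 to 347 ± 91.3 CPM (log2 change 3.87, SE 0.28, edgeR adjusted p = 3.4e-05). The serpin Serpina3g rose by 2.55 (SE 0.22) and the immunoproteasome subunit Psmb8 by 1.89 (SE 0.21). Several of these genes are also expressed by hepatocytes and endothelial cells, whose marker genes moved in the same direction, and the part of liver tissue in these changes was not tested. Of the cytokines and receptors that induce interferon-gamma, 4 of 15 tested were called higher (Il12b, Il15ra, Ebi3 and Zbtb16) and 1 lower (Il18rap), with a median of 0.82. The count fell to 2 without primary replicate 1 or any single liver replicate. Il15ra, which presents interleukin-15 to T and NK cells, rose from 4.85 ± 3.37 to 33.5 ± 12.2 CPM (2.79, SE 0.54, edgeR adjusted p = 0.007721), and Il12b, a subunit of interleukin-12, rose by 2.51 (SE 0.51, adjusted p = 0.009404), from a mean of 0.125 to 0.732 CPM.

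Of 11 genes that process or scavenge the ligands, 4 were called higher (Dpp4, Ackr1, Ackr2 and Ackr4) and 0 lower, with a median of -0.18. Without primary replicate 3 or liver replicate 2 the count was 2, and without primary replicate 2 or liver replicate 3, 2 genes were called lower. Dpp4, the peptidase that clips the CXCR3 ligands at their amino end, rose from 1.91 ± 0.564 to 121 ± 40.6 CPM (log2 change 5.98, SE 0.36). The atypical receptor Ackr1, which binds chemokines on venules, rose by 4.09 (SE 0.61, edgeR adjusted p = 0.002151). Ackr2, a scavenger of CC chemokines, rose by 1.57 (SE 0.36, edgeR adjusted p = 0.01599) and lost its call when either of 2 libraries was left out. Adam10, the main constitutive sheddase of CXCL16, was at 310 ± 23.6 and 184 ± 59.5 CPM (-0.75, SE 0.26, adjusted p = 0.07657), lower in every liver library, and did not pass. Neither did Adam17 (-0.18, SE 0.18), Ackr3, a scavenger of CXCL11 and CXCL12 (-0.97, SE 0.36), or Pf4, the platelet chemokine CXCL4 (-0.57, SE 0.31).

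Among 16 genes that signal from chemokine receptors, 4 were called higher and 1 (Rgs2) lower, with a median of 0.022. Those higher were Rac2 and Dock2, which drive leukocyte migration, and Itgal and Itgb2, the chains of the integrin LFA-1. Itgal rose by 2.42 (SE 0.25). Of 13 other CXC genes tested, 4 were called higher (Cxcl1, Cxcl12, Cxcl14 and Cxcr5) and 3 lower (Cxcl5, Cxcl17 and Cxcr4), with a median of 0.012, and the lower calls were 6 without primary replicate 2 and 1 without liver replicate 2. Of 28 CC, XC and CX3C genes tested, 10 were called higher and 1 (Ccl11) lower, with a median of 0.30, and 5 were called higher without liver replicate 2 or 3. Ccr2, the receptor that brings monocytes into tissue, rose by 2.19 (SE 0.36). The lower calls of Ifngr1, Il18rap, Rgs2 and Ccl11 were each lost without at least 1 of the libraries.

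Markers of the cells that could carry the 6 genes moved unequally between the bulk groups. Summed levels of gene lists use library totals without TMM factors, unlike the CPM of single genes. Those factors were 1.05 to 1.26 in primary and 0.80 to 0.98 in liver. TMM scaling would therefore raise the liver sums against the primary ones, and the overlap of the T cell sums depends on the scale. T cell genes had 1 call higher (Zap70; 2 without primary replicate 2) and 0 lower of 19, with a median of 0.58, and their summed level was 66.4–70.8 CPM in primary and 53.5–73.8 CPM in liver. NK, NKT and innate lymphoid genes had 4 higher (Klrb1c, Klrk1, Klrd1 and Tnfsf10) and 1 lower (Itga2) of 13 tested, with summed levels of 314–341 and 147–235 CPM, and 2 higher without any 1 of 4 libraries (primary 1 or 3, liver 2 or 3). Cross-presenting dendritic cell genes had 9 higher and 1 lower of 12, with a median of 1.35 (6 to 9 higher when 1 library was left out), while their sum, in which Cd24a weighs most, was 884–1110 and 378–610 CPM.

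Macrophage genes had 8 higher and 1 (Cd14) lower of 15 (4 or 5 higher without any of 5 libraries, all but primary 2), with sums of 1110–2180 and 7630–13000 CPM. The 10 Kupffer cell genes, of the resident liver macrophages, were all called higher, with sums of 59.2–77 and 421–596 CPM, and so were the 11 genes of liver sinusoidal endothelium (7 without liver replicate 1), at 101–144 and 328–389 CPM, of which Clec4g was at 0 in the 3 primary libraries. Endothelial genes had 7 higher and fibroblast and stellate genes 10 higher, of 12 and 13, with 0 lower in either. Epithelial tumor genes had 0 higher and 3 lower (Msln, Tspan8 and Muc1) of 12, with sums of 5070–11100 and 2560–2960 CPM. Muc1, whose levels overlapped between sites, lost its call without any of 5 libraries, and Tspan8 without either of 2. Because Kupffer and sinusoidal cells can make CXCR3 ligands and CXCL16, their markers are given here beside the bulk differences, and their part in them was not tested.

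Over pooled leukocytes, the single-cell libraries gave the opposite order for Cxcl9, Cxcl10 and Cxcr3, which were higher in bulk. Some single classes went the bulk way, as given below, and Cxcl11 had no row there. With 1 library per site nothing is tested across samples, and each interval covers counting error only. Over all kept cells of leukocyte classes, 1920 in primary and 3953 in liver, Cxcl9 was at 457 CPM in primary and 72.9 CPM in liver, 6.28-fold higher in primary (95% interval 6.03–6.54). Cxcl10 was 1.29-fold higher in primary (1.22–1.37), Cxcr3 1.6-fold (1.24–2.07), Cxcl16 2.24-fold (2.18–2.3) and Cxcr6 2.41-fold (2.13–2.71).

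Put on the same log2 scale of liver over primary, the bulk and leukocyte values were 1.69 and -2.65 for Cxcl9, 1.04 and -0.37 for Cxcl10 and 1.57 and -0.68 for Cxcr3. For Cxcl16 they were -0.06 and -1.16, and for Cxcr6 0.27 and -1.27. All 5 genes were lower in the liver leukocytes, whereas 4 of the 5 had a bulk value above 0. The 2 assays share no library, and bulk tissue holds hepatocytes, endothelium and stroma that the CD45 sort is meant to leave out, so the values are set side by side without a test of their difference.

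**Figure D2:**
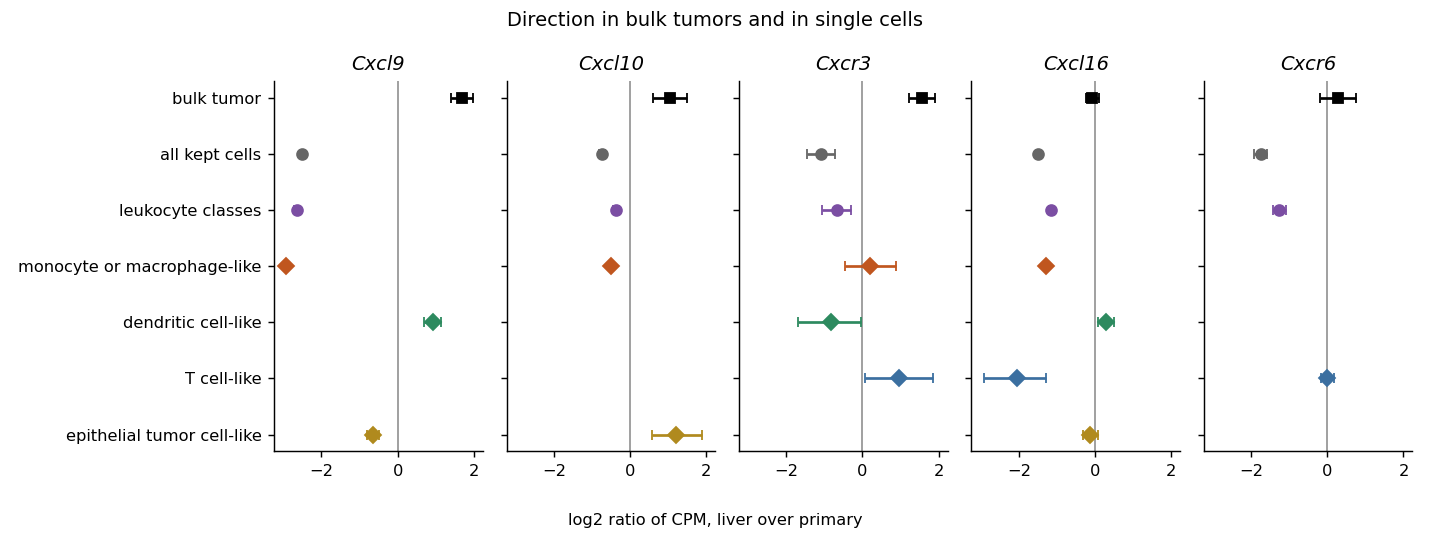
Log2 ratio of CPM, liver over primary (horizontal axis), for each gene in bulk tumors and in sets of single cells (rows). Bars are the SE for bulk (3 libraries per site) and 95% counting intervals for cells (1 library per site), and a set is drawn where both libraries held at least 10 UMIs. Bulk squares of Cxcl9, Cxcl10 and Cxcr3 lie right of 0 while the points for leukocytes lie left of it.

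Cell classes were rebuilt from clusters and named by marker genes. Monocyte- or macrophage-like cells, 1502 in primary and 3112 in liver, held most of the ligand UMIs: 93.1% of Cxcl9, 92.5% of Cxcl10 and 93.1% of Cxcl16 in primary, and 52.5%, 82.0% and 81.4% in liver. Epithelial tumor cell-like cells held 3.48% of Cxcl9 UMIs in primary and 33.2% in liver, where they were 31.1% of cells. Cxcr6 was nearly confined to T cell-like cells, which held 99.02% and 93.1% of its UMIs while making up 5.63% and 1.98% of cells. Cxcr3 was spread over dendritic cell-like (44% and 14.0%), T cell-like (17.6% and 20.2%), monocyte- or macrophage-like (24.8% and 45.7%) and smaller classes. All shares of cells can be set by the sort and by the UMI and mitochondrial limits.

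**Figure D3:**
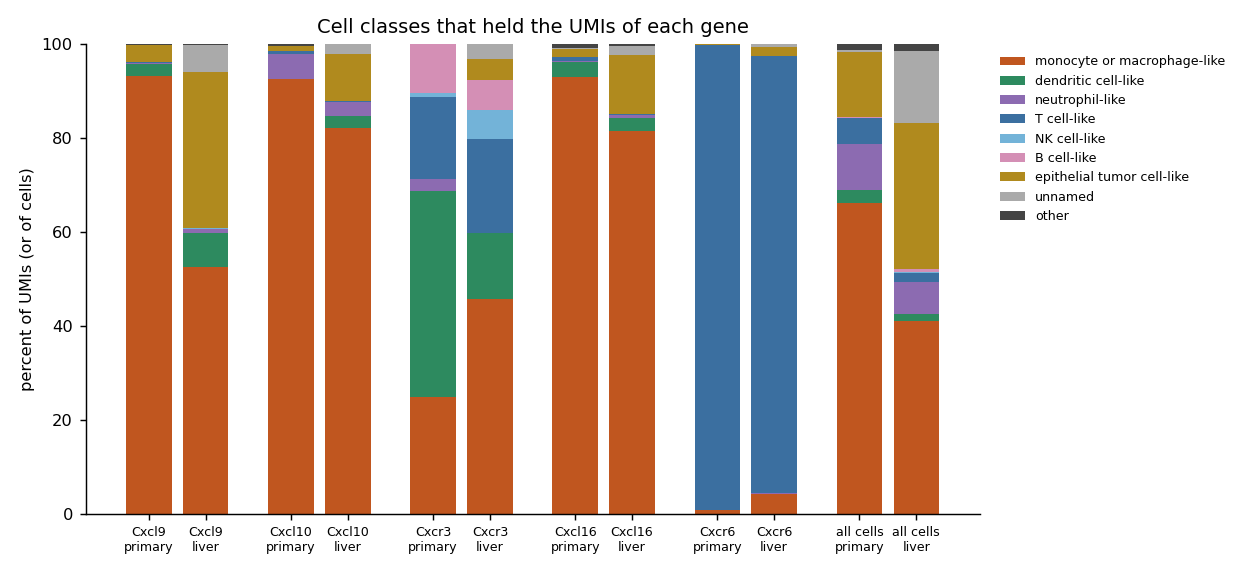
Share of the UMIs of each gene held by each cell class in each library (stacked bars, percent), with the classes' shares of all kept cells at the right. Macrophage-like cells fill most of the ligand bars, T cell-like cells fill the Cxcr6 bars, and the Cxcr3 bars are split among classes.

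Among monocyte- or macrophage-like cells Cxcl9 was at 527 CPM in primary and 69.0 CPM in liver, 7.64-fold higher in primary (7.31–7.97). Cxcl16 was at 622 and 256 CPM, 2.44-fold higher in primary (2.37–2.5), and Cxcl10 at 93.1 and 66.0 CPM, 1.41-fold higher (1.33–1.5). For scale, RNA free in the droplets was read from barcodes under 100 UMIs, which held Cxcl9 at 90.3 CPM in primary and 66.8 CPM in liver, Cxcl10 at 45.2 and 31.7 CPM and Cxcl16 at 197 and 121 CPM. The liver macrophage level of Cxcl9 averaged over the class was close to its level in free RNA, and its UMIs sat mostly in few cells. A level in free RNA is not the amount that free RNA adds to a cell: liver T cell-like cells held Cxcl9 at 7.4 CPM. How much free RNA added to each class was not tested. The share of macrophage-like cells with a Cxcl9 UMI was 25.5% in primary and 14.1% in liver at full depth, and 11.2% (9.7–13.0) and 3.57% (2.94–4.28) after each cell was thinned to 1000 UMIs. In T cell-like cells, which are not known as a source of CXCL9, those thinned shares were 1.56% and 0.667%. They were 2.715% and 4.288% in neutrophil-like cells, and 7.051% and 5.475% in epithelial tumor cell-like cells. The liver share of epithelial tumor cell-like cells (interval 4.591–6.472) thus lay above that of liver macrophage-like cells. Whether these shares reflect expression or free RNA was not tested. Cxcl16 was found in 43.3% of primary and 21.9% of liver macrophage-like cells after thinning to 1000 UMIs.

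The ligands differed in how they were spread among macrophage-like cells. The tenth of the cells with the most UMIs held 94.2% of Cxcl9 UMIs in primary and 95% in liver. For Cxcl10 it held 100% in both, since fewer cells than that had any UMI of it. For Cxcl16 that share was 27.8% and 35.4%. A single primary cell carried as many as 441 Cxcl9 UMIs, and a single liver cell 226. Cxcl9 and Cxcl10 often met in the same cell: of primary macrophage-like cells with a Cxcl10 UMI 61.7% also had Cxcl9, against 21.5% of those without, and in liver the shares were 32.2% and 12.6%. Cells of higher depth have more of every gene, which these shares do not correct.

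Different clusters made up the class at each site, so the clusters were looked at one by one. Primary macrophage-like cells were mostly in cluster 2 (872 cells, led by Rgs1 and Thbs1) and cluster 6 (450 cells, led by Ccl8, Ccl5 and Ms4a7, with Cxcl9 among its leading genes). Liver cells were mostly in cluster 0 (1426 cells, led by Arg1 and Fabp5) and cluster 5 (682 cells, led by Cx3cr1 and Apoe). Cluster 6 held 29.96% of primary macrophage-like cells and 85.0% of their Cxcl9 UMIs, and 5.69% of liver cells with 58.4% of theirs. Cxcl9 and the other members were left out of the genes used for clustering. With 1 library per site, these shares describe the cluster and test nothing. Within cluster 6 the level was 1247 CPM in primary and 821 CPM in liver, a liver-to-primary ratio of 0.659 (0.623–0.696), far nearer to 1 than over the class.

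Cxcl10 was divided between clusters in liver. Cluster 13, with 6 primary and 173 liver cells and led by the interferon-induced genes Rsad2 and Ifit family members, with Cxcl10 itself among its leading genes, was at 586 CPM and held 50.5% of the Cxcl10 UMIs of liver macrophage-like cells in 5.56% of the cells. The same cells had Cxcl9 at 42.9 CPM, beside 66.8 CPM in free RNA, and the part that free RNA added was not tested. In cluster 6 Cxcl10 was at 204 CPM in primary and 442 CPM in liver, 2.16-fold higher in liver (1.98–2.35), which is opposite to its direction over the class.

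Over the 6 macrophage-like clusters with at least 20 cells in each library, Cxcl16 was lower in liver in 6 and Cxcl9 in 5. Cxcl10 was lower in liver in 3 and higher in 2, and cluster 14 had 0 Cxcl10 UMIs in primary and 3 in liver. With these clusters weighted equally, a setting chosen after seeing the data, the mean log2 ratio of liver over primary was -2.33 for Cxcl9, -1.07 for Cxcl16 and 0.29 for Cxcl10. The positive value of Cxcl10 rested on cluster 14, and without it the mean over the other 5 clusters was -0.24.

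**Figure D4:**
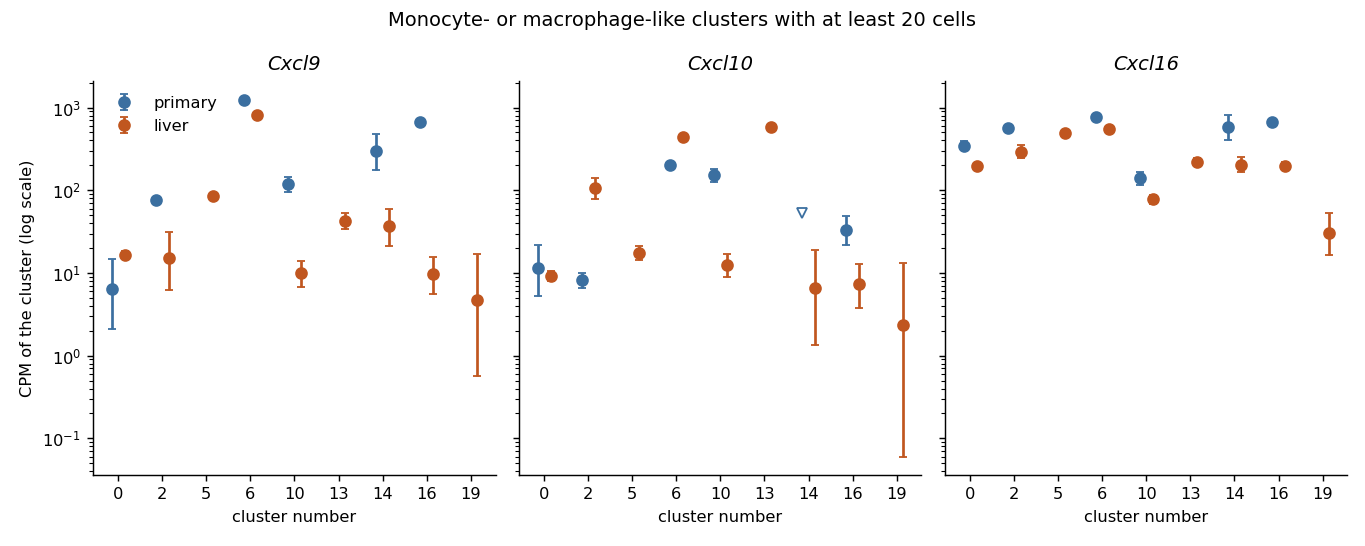
Level of each ligand (CPM, log scale) in each monocyte- or macrophage-like cluster with at least 20 cells in a library, by site. Bars are 95% counting intervals, and the open triangle is the level that 3 UMIs would give where none was found. Cluster 6 has the highest Cxcl9 in both libraries, cluster 13 has the highest Cxcl10 and Cxcl16 is present in every cluster drawn.

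Dendritic cell-like cells, 63 in primary and 111 in liver, went the other way for Cxcl9. It was at 181 CPM in primary and 343 CPM in liver, 1.89-fold higher in liver (1.62–2.21). In cluster 15, which holds most of the class in both libraries (59 and 70 cells), the levels were 188 and 458 CPM, 2.44-fold higher in liver. Its leading genes included Xcr1, Clec9a and Wdfy4, genes of cross-presenting dendritic cells. They also included Ccl17 and Mgl2, so a single dendritic type is not assumed. The share of dendritic cell-like cells with a Cxcl9 UMI after thinning was 7.94% (2.63–17.6) and 12.6% (7.07–20.3) at 1000 UMIs, and 14.3% (6.75–25.4) and 10.6% (5.4–18.1) at 2000 UMIs, where 7 liver cells were left out. At full depth it was 42.9% and 28.8%, at medians of 25033 and 8427 UMIs, so the shares gave no fixed order. In liver 12 cells held 91.0% of the Cxcl9 UMIs of the class. Dendritic cell-like Cxcl16 was at 271 and 333 CPM, 1.23-fold higher in liver (1.07–1.42), but within cluster 15 it was lower in liver, at 239 and 186 CPM, a ratio of 0.779 (0.637–0.947). Cluster 20, led by Ccr7, Fscn1 and Ccl5 and with 41 liver cells against 4 primary ones, had Cxcl16 at 741 CPM in liver. Cxcl10 had 2 UMIs in primary and 81 in liver, and those 81 lay in 5 cells.

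In epithelial tumor cell-like cells Cxcl9 was at 104 and 65.9 CPM, and Cxcl16 at 64.7 and 59.5 CPM. Their Cxcl10 was at 5.25 and 12.1 CPM, 2.31-fold higher in liver (1.5–3.74), which is the bulk direction. These levels are near or under those of free RNA in the same library, which are not the amounts that free RNA adds to a cell. T cell-like cells stood lower, at 27.1 and 7.4 CPM of Cxcl9 and 61.5 and 14.8 CPM of Cxcl16. Expression by tumor cells was not tested. The unnamed cluster of 1146 liver and 9 primary cells had Cxcl9 at 71.8 CPM in liver, near the epithelial level there. Neutrophil-like cells held Cxcl10 at 183 CPM in primary and 73.4 CPM in liver, with 13 of 221 and 19 of 513 cells carrying a UMI. Their Cxcl9 was at 44.6 and 35.0 CPM, and the part that free RNA added was not tested.

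Cxcr6 had the same level in T cell-like cells of both sites, 400 CPM each. The counts were 708 UMIs over 128 primary cells and 432 UMIs over 150 liver cells, and the liver-to-primary ratio was 1.001 (0.886–1.13). More primary cells had a Cxcr6 UMI, 90.6% against 72.0%, but the median depth was 10806 and 5977 UMIs, and after thinning the shares were 32.8% (24.8–41.7) and 29.3% (22.2–37.3). In monocyte- or macrophage-like cells Cxcr6 was at 0.271 and 0.52 CPM, and free RNA held it at 4.37 and 4.45 CPM, so the T cell-like level stood far above background. T cell-like cells were 6.67% of leukocyte-class cells in primary and 3.8% in liver. The 2.41-fold difference of Cxcr6 over leukocytes thus stood beside a larger share of T cell-like cells in primary and a ratio near 1 within them.

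The T cell-like cells of the sites fell into different sub-clusters. Those with at least 20 cells were 12.2, 12.4 and 12.5 in primary, with Cxcr6 at 630, 388 and 478 CPM, and 12.0, 12.1 and 12.6 in liver, with 204, 748 and 335 CPM. The liver thus held both the lowest and the highest Cxcr6 level. Sub-cluster 12.0, lowest in Cxcr6, was highest in Cxcr3, at 75.9 CPM (45.7–118), while 12.1 had 17.7 CPM (5.75–41.3).

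T cell-like cells were also split by whether they had a UMI of Cd8a or Cd8b1. Of these cytotoxic lineage cells, 115 in primary and 106 in liver, Cxcr6 was at 406 and 427 CPM, a ratio of 1.05 (0.927–1.19). T cell-like cells with a Cd4 UMI and none of Cd8 were few, 7 and 20, with Cxcr6 at 296 and 209 CPM and Cxcr3 at 74.0 and 111 CPM.

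Cxcr3 was sparse everywhere, with 125 UMIs in all primary and 129 in all liver cells. In T cell-like cells it was at 12.4 CPM in primary (22 UMIs in 16 cells) and 24.1 CPM in liver (26 UMIs in 19 cells), 1.94-fold higher in liver (1.056–3.59). That is the bulk direction, and the reverse of that over all leukocytes. The share of T cell-like cells with a Cxcr3 UMI was 12.5% and 12.7% at full, unequal depth. After thinning it was 1.56% and 2% at 1000 UMIs, and 1.575% (0.191–5.57) and 6.9% (3.36–12.3) at 2000 UMIs. In the Cd8 cells the ratio was 1.59 (0.718–3.47), which includes 1. Dendritic cell-like cells were at 31.7 and 17.8 CPM, a ratio of 0.563 (0.311–0.973). All 55 primary and 18 liver UMIs lay in cluster 15, where the ratio was 0.737 (0.407–1.27), which includes 1. NK cell-like cells, 1 in primary and 11 in liver, had 8 UMIs in 4 liver cells, or 170 CPM (73.4–335). In B cell-like cells, 13 UMIs came from a single primary cell of 5, and 8 UMIs from 4 of 56 liver cells. Macrophage-like Cxcr3 was at 1.4 and 1.61 CPM, and free RNA at 0.364 CPM in primary (1 UMI) and 1.95 CPM in liver (7 UMIs). Epithelial tumor cell-like cells of primary had no Cxcr3 UMI, which allows up to 0.716 CPM. Both receptors were found together in 15 of 128 primary and 13 of 150 liver T cell-like cells.

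**Figure D5:**
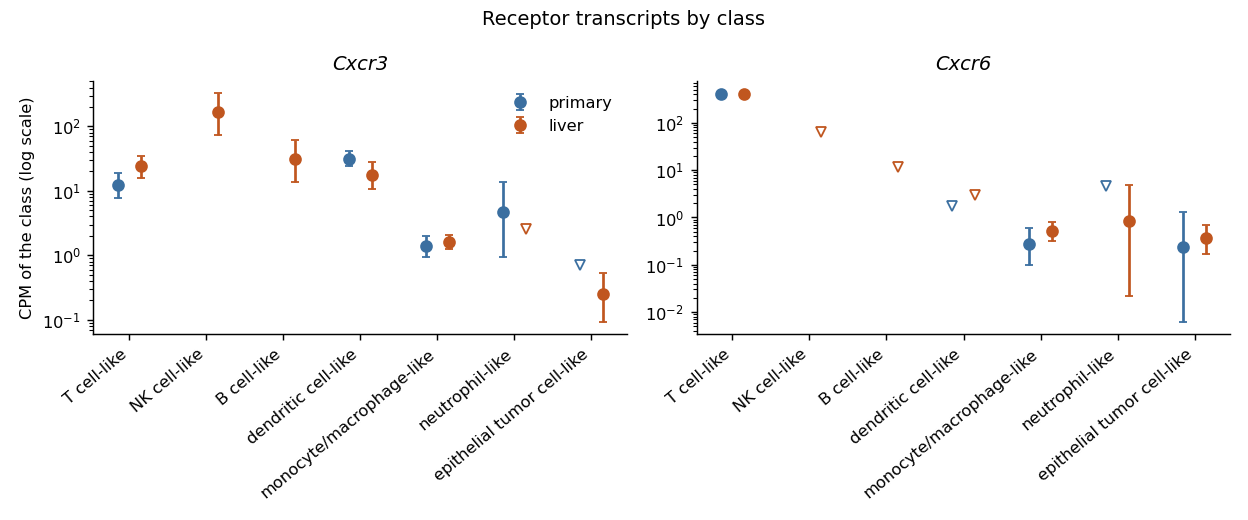
Cxcr3 and Cxcr6 level (CPM, log scale) by cell class and site, for classes with at least 11 cells in a library. Bars are 95% counting intervals, and open triangles mark the level that 3 UMIs would give where none was found. The Cxcr6 points of T cell-like cells coincide at 400 CPM, while Cxcr3 is drawn above 10 CPM in T cell-, NK cell-, B cell- and dendritic cell-like cells.

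Upstream and processing genes were read in the same cells. Ifng in T cell-like cells was at 103 CPM in primary and 78.7 CPM in liver. Irf1 in macrophage-like cells was at 116 and 46.7 CPM, so it stood, like Cxcl9, lower in the liver library, whereas its bulk log2 change was above 0. Dpp4, at 121 CPM in liver bulk tissue, was at 8.32 and 2.02 CPM in macrophage-like cells and at 135 and 128 CPM in dendritic cell-like cells. The sheddases of CXCL16 were closer between sites, with macrophage-like Adam10 at 131 and 119 CPM and Adam17 at 104 and 76.8 CPM.

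The genes most like each member were sought over 38 sums of a cluster and a library, among 11509 genes, by Pearson correlation of log2(CPM + 10). Points of 1 library share its depth and free RNA, so the values are descriptions. Cxcr6 followed the T cell genes Cd3e (r = 0.997), Pdcd1 (0.996) and Themis (0.995). Cxcl16 followed Cpq (0.879), H2-Aa (0.872) and Cd74 (0.871), the last pair being genes of MHC class II presentation. Cxcl10 followed Ddx60 (0.729), Ifih1 (0.724) and Acod1 (0.715). Cxcl9 was most like Pak1 (0.731), Ocstamp (0.698) and Lrp5 (0.684), and Cxcr3 was most like Tspyl3 (0.807), Nup210 (0.763) and Gm20324 (0.761).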

How the data were processed

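For the 6 bulk libraries the authors deposited raw counts of reads per gene, whole numbers by their values, and FPKM. The aligner, counter and strandedness are not given in the sources used here. The 10x matrices deposited by the authors list UMI counts of 6794880 barcodes per library (software version 3.0.0, per the file headers), and bcl2fastq, Cell Ranger and mm10 stand without a role in the submitters' processing notes.

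Bulk counts passed filterByExpr, were scaled by TMM and were fitted on site with a robust quasi-likelihood fit in edgeR 4.0.16 (R 4.3.3), two-sided, with Benjamini-Hochberg adjustment over 16487 genes. CPM of single genes use TMM-scaled totals, and summed CPM of gene lists use library totals without TMM factors. The alternatives were RLE factors, DESeq2 1.42.0, no filter, liver-tissue genes left out of totals, a replicate block and leaving out each library. Cells had at least 1500 UMIs and 200 genes and at most 10% mitochondrial UMIs. Scrublet in scanpy 1.11.5 marked 5 primary and 43 liver doublets, which were removed. Both libraries were clustered together (Leiden, resolution 1, 2000 variable genes, with the members left out). A cluster was named from at least 3 listed markers, by a rule adjusted after seeing the data, so the class shares may depend on it. UMIs were summed per class, with exact Poisson, conditional and Clopper-Pearson 95% intervals that cover counting error only. The methods were tested on simulated data. Members and gene lists were chosen with earlier results of these data known. Named bulk genes were up to 3 called genes of each list by p-value and Ifng, Irf1, Dpp4, Adam10, Adam17, Ackr3 and Pf4, and 1 further gene set by the rule is not reported here. Where 5 or fewer genes of a list were called in a direction all are named, chosen after their values were seen.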

Additional observations from a re-analysis of the deposited data

Results flagged for a closer look

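Barcodes under 1500 UMIs, which no comparison used as cells, also held UMIs of these genes, and no control sample sets a level for them. In the primary library they carried 3487 UMIs of Cxcl9, 1063 of Cxcl10, 30 of Cxcr3, 6374 of Cxcl16 and 107 of Cxcr6. In the liver library they carried 4874, 1426, 46, 6091 and 210. All 10 counts exceed the limit that a count of 0 allows. In CPM of such barcodes, Cxcl9 was at 108 in primary and 85.3 in liver, Cxcl16 at 198 and 107, and Cxcr6 at 3.31 and 3.67.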

How the results depend on the processing

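The bulk directions of Cxcl9, Cxcl10, Cxcl11 and Cxcr3 held under all 11 alternatives run. Leaving out 1 library at a time gave log2 changes of 1.33 to 1.89 for Cxcl9, 0.67 to 1.54 for Cxcl10, 1.94 to 2.72 for Cxcl11, 1.45 to 1.68 for Cxcr3, -0.14 to 0.045 for Cxcl16 and -0.041 to 0.85 for Cxcr6. In these fits 2 to 4 members were called higher, beside 1810 to 3346 of all tested genes. These calls describe the members and support nothing: Cxcl10 passed without primary replicate 3, and Cxcr3 missed without liver replicate 1 or 2. Cxcl16, near 0, turned to 0.024 with liver-tissue genes left out of totals and to 0.045 without primary replicate 3, and Cxcr6 to -0.041 without primary replicate 1. Scalings moved the median of all genes by at most 0.088. Without liver replicate 2 the test called 1810 genes higher and 134 lower, and 606 and 414 were lower without primary replicate 3 and liver replicate 1.

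Under a replicate block the changes were 1.65, 1.15, 2.38, 1.58, -0.06 and 0.39 for Cxcl9, Cxcl10, Cxcl11, Cxcr3, Cxcl16 and Cxcr6. There 3 members were called higher, beside 2703 of all tested genes. Same-numbered libraries correlated at -0.196, 0.279 and 0.103, so the numbers were not taken as pairs.

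In macrophage-like cells, with clusters of at least 20 cells per library weighted equally (chosen after seeing the data), the log2 ratios were -2.33 for Cxcl9, -1.07 for Cxcl16 and 0.29 for Cxcl10. The last sign rests on cluster 14, with 0 UMIs in primary and 3 in liver, and without it the value was -0.24 (also added after seeing the data). Cxcl10 was at -0.41 with at least 3000 UMIs per cell, and the cause was not tested. Thinned to 2000 UMIs, 15.1% of primary and 5.65% of liver macrophage-like cells had Cxcl9, and 53.5% and 44.8% of T cell-like cells had Cxcr6.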
